A study of Mus musculus with 6 samples.

Results

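The genes described here are the vascular endothelial growth factor (VEGF) ligands and receptors of mouse aortic endothelial cells (EC), chosen by symbol as 4 ligands (Vegfa, Vegfb, Vegfc and Pgf) and 3 receptors (Kdr, Flt1 and Flt4). They are 7 of the 54429 genes in the count table, and all 7 passed the filter on low counts that left 16065 genes for testing. The cells were primary aortic EC of adult wild-type C57BL/6 mice, obtained commercially, and RNA was sequenced after ribosomal RNA depletion in 6 libraries. In 3 libraries the cells carried a lentiviral vector that overexpresses Meis1, a homeobox transcription factor (Meis1-OE), and in the other 3 they carried a YFP control vector (YFP-CTRL). Both conditions had 48 h of transduction, a sort of YFP+CD31+VEC+ cells at 72 h, and were then re-plated and grown to confluency, so all libraries come from vector-carrying cells that express the EC surface proteins CD31 and VE-cadherin. The promoter of the vector, the number of animals behind the cells and whether animals were pooled are not given in the sources used here, and the methods call the replicates independent without saying whether each was a separate cell lot. P-values therefore measure the spread between these libraries only. Libraries are named by condition and by the letter of their column, and values per library are always listed in the order A, B, C.

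VEGF ligands are secreted dimers that bind receptor tyrosine kinases on EC. VEGF-A signals mainly through VEGFR2, the product of Kdr, and also binds VEGFR1, the product of Flt1, which takes up ligand with high affinity and signals weakly. VEGF-B and placental growth factor (Pgf) bind VEGFR1 alone, whereas VEGF-C binds VEGFR3, the product of Flt4, and after proteolytic processing also VEGFR2, and is best known for the growth of lymphatic vessels.

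Of the ligands, Vegfc rose in Meis1-OE EC, from 1.25 ± 0.582 to 11.5 ± 2.61 CPM (counts scaled to the normalized total of each library; SD, n = 3 each), and it was the only one of the 7 genes to pass the adjusted threshold. Vegfb was also higher in each Meis1-OE library, and Pgf and the receptor gene Kdr were lower in each, but these differences did not pass. Vegfa and Flt4 varied widely among the YFP-CTRL libraries, and for these genes and Flt1 the conditions overlapped. Together the 7 genes took 0.0718% to 0.0820% of all counts in Meis1-OE libraries and 0.0922% to 0.151% in YFP-CTRL libraries, without overlap. This sum is weighted to Kdr, which had the most counts of the 7 in each library. Kdr had 11935 to 17010 counts in Meis1-OE and 20751 to 42513 in YFP-CTRL libraries. Vegfb and Vegfc went against the sum.

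The region before the annotated start is shown for 3 genes, since Vegfc passed the test, Vegfb was the other ligand whose libraries did not overlap in that direction, and Flt4 encodes the main receptor of VEGF-C. Each line gives the 250 bases before the start, 5′ to 3′ on the strand of the gene, from RefSeq on GRCm38.p6, at chr8:54077282-54077531 (plus strand) for Vegfc, chr19:6987652-6987901 (minus strand) for Vegfb and chr11:49609429-49609678 (plus strand) for Flt4. Capitals mark the GC box letters GGGCGG or their reverse complement, and adjacent matches run together.
Vegfc: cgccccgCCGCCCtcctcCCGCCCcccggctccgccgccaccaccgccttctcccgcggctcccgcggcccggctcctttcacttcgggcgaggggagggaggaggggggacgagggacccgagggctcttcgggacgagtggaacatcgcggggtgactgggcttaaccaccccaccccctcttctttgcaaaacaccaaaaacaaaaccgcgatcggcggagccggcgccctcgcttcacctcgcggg
Vegfb: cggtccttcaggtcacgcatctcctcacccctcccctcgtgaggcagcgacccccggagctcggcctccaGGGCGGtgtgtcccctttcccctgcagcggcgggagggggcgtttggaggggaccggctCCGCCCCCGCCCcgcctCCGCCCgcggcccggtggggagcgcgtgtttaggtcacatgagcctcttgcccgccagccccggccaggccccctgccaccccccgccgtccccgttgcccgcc
Flt4: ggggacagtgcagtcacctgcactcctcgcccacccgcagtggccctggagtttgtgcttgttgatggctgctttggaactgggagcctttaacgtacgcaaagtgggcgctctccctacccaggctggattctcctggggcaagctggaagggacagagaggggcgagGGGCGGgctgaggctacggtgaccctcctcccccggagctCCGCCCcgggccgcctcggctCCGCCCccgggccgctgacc
The G and C content of these stretches was 71.6% for Vegfc, 76.4% for Vegfb and 68.4% for Flt4. Windows of 250 bases before to 50 bases after a start were searched on both strands. The GC box letters were present in the first window of 7 of 7 VEGF genes, with 2 matches for Vegfc, 4 for Vegfb and 3 for Flt4. They were in 8 of the 9 windows listed for the 7 genes and in 35.7% of 32851 windows of mouse genes. The core letters TGACAG, known as a site bound by Meis proteins, were in 0 of the 9 windows listed for the 7 genes and in 19.2% of all windows. The hypoxia response core ACGTG was in 1 of the 9 windows, that of the second annotated start of Vegfa, and in 19.6% of all windows. That window (chr17:46025114-46025413) lies inside the Vegfa locus, so it covers sequence within the gene and not the region before it. Flt1 alone held TATAAA (13.6% of all windows) and the cAMP response element TGACGTCA (1.79% of all windows, a palindrome read as 1 site on both strands), and neither overlapped the other. A match is a description of the letters, and the lack of one says only that these letters are not in this window.

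In the annotation of the same build, Vegfc lies at chr8:54077532-54186454 on the plus strand and shares part of its locus with Gm33153. Vegfa (chr17:46016993-46032377), Vegfb (chr19:6982472-6987651) and Pgf (chr12:85166637-85177785) lie on the minus strand. Kdr (chr5:75932827-75979072) and Flt1 (chr5:147561604-147726438) lie on the minus strand of the same chromosome and overlap Gm32727 and Gm35383, while Flt4 lies at chr11:49609679-49652739 on the plus strand. The 3 overlapping genes are not rows of the count table used here, and whether counting used the strand is not given in the sources used here, so reads of such genes cannot be separated from those of Vegfc, Kdr or Flt1.

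Library totals ranged from 34176592 to 47956569 rounded counts. The gene Gm26917 alone took 8.06%, 9.31% and 10.5% of all counts in Meis1-OE and 11.8%, 13.0% and 14.1% in YFP-CTRL libraries. Meis1 itself checked the labels, with 135325 to 157828 counts in the Meis1-OE libraries and 39 to 85 in the YFP-CTRL libraries. All 8 EC marker genes were expressed and summed to 3181 to 3898 CPM in Meis1-OE and 3737 to 5137 CPM in YFP-CTRL libraries, with 5 of the 8 log2 fold changes above 0 and a median of 0.08. Tek was called lower (log2 fold change -0.78, adjusted p = 0.0351 from edgeR, but 0.109 to 0.173 without any 1 Meis1-OE library and 0.112 without YFP-CTRL library B), and Cdh5, which encodes VE-cadherin, was lower in each Meis1-OE library without passing (-0.70, adjusted p = 0.0535 from edgeR), while DESeq2 called 2 of the 8 lower. The YFP-CTRL libraries stood apart from each other in 15 proliferation genes, whose mean log2(CPM + 1) was 3.94 in library A, 5.10 in B and 6.34 in C, beside 6.35 to 6.40 in the Meis1-OE libraries, so only control library C had a score near theirs and the score is partly confounded with condition. None of the 15 passed in edgeR (0 also at an unadjusted p under 0.05 and 0 by DESeq2), while 14 were higher without YFP-CTRL library C, in a fit that called 16.5% of tested genes higher. Smooth muscle and fibroblast markers summed to 15.7 to 17.8 CPM in Meis1-OE and 34.9 to 54.2 CPM in YFP-CTRL libraries, with 3 of 8 markers high enough to test. Most of that sum was Pdgfra in YFP-CTRL libraries A and B (33.3 and 49.1 CPM) and Acta2 in library C (19.9 CPM). Pdgfra was lower in each Meis1-OE library without passing (log2 fold change -1.47, adjusted p = 0.0598 from edgeR), while Pdgfrb went the other way (0.55). The edgeR fit of all 6 libraries without a covariate called none of these markers. DESeq2 called 1 of them lower. So did edgeR without YFP-CTRL library C and edgeR with the proliferation covariate. Macrophage and blood markers summed to at most 0.969 CPM. The part of these differences in the results on VEGF genes was not tested, apart from the fits without single libraries and with the proliferation score given beside them. In bulk RNA, fewer cells of a kind and less RNA per cell cannot be told apart.

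The first question was which ligands and receptors differed between Meis1-OE and YFP-CTRL EC. With edgeR's quasi-likelihood test, adjusted over 16065 genes, 1 of the 7 genes was called higher and 0 lower at an adjusted p under 0.05, where 4.14% of all tested genes were called higher and 2.73% lower. At an unadjusted p under 0.05, 2 of the 7 were higher and 2 lower, beside 12.8% and 13.4% of tested genes, and DESeq2 called 1 higher and 2 lower, beside 6.21% and 6.14%. With library totals in place of TMM, the median log2 fold change over all tested genes moved from 0.01 to 0.15 and 6.52% of genes were called higher and 1.11% lower, while the VEGF genes kept 1 higher and 0 lower. The libraries of the conditions did not overlap for 4 of the 7 genes, 2 higher and 2 lower, beside 17.2% and 15.9% of all tested genes.

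**Figure D1:**
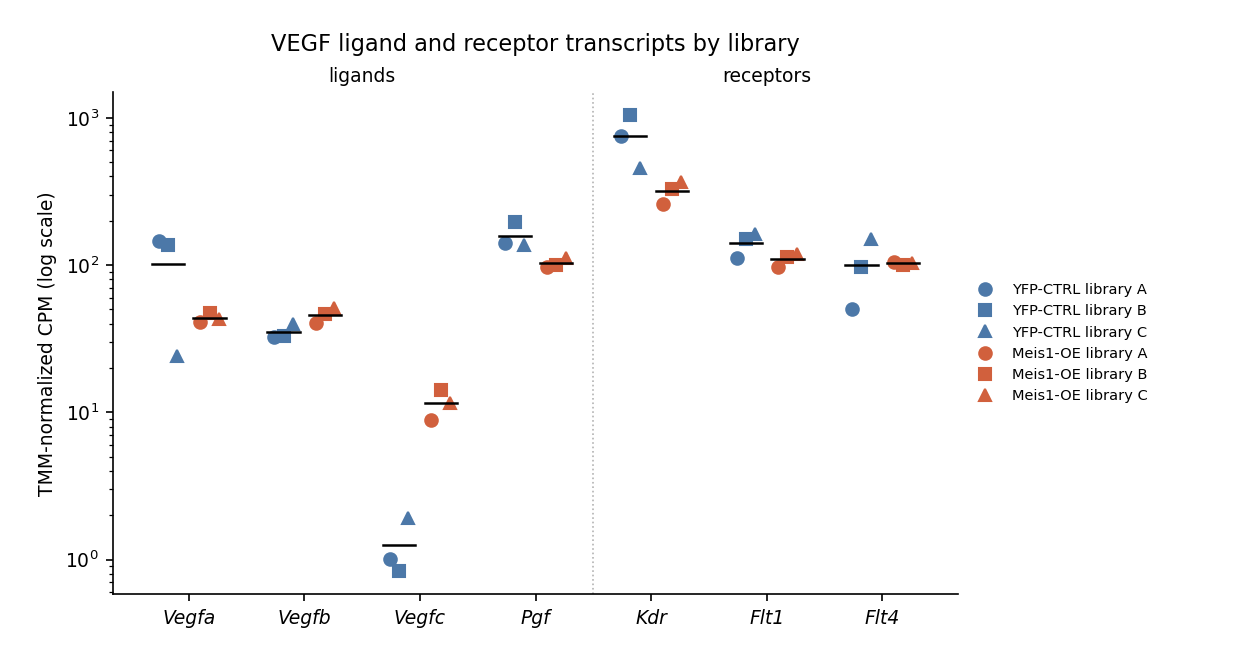
Normalized CPM (log axis) of the 4 VEGF ligand and 3 receptor genes in each library, with bars at the mean of 3 libraries per condition. Vegfc lay between 8.86 and 14.1 CPM in Meis1-OE and between 0.833 and 1.91 CPM in YFP-CTRL libraries, whereas Vegfa and Flt4 spread more widely over the YFP-CTRL libraries than between the condition means on the log axis.

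Among the ligands, Vegfc had 405, 639 and 537 counts for Meis1-OE, against 34, 34 and 87 counts for YFP-CTRL. Each Meis1-OE library was above each YFP-CTRL library, and the highest control was library C. The ratio of the mean CPM was 9.21, and the log2 fold change was 3.19 with a standard error (SE) of 0.35 (adjusted p = 0.00548 from edgeR). Vegfc passed under every alternative run in edgeR and DESeq2, with log2 fold changes of 2.74 to 3.64 and adjusted p-values of at most 0.0335.

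Because VEGF-C is known as the growth factor of lymphatic EC, the lymphatic markers were read beside it. Pdpn, Ccl21a and Mmrn1 had 0 counts in all libraries, Prox1, the transcription factor that sets lymphatic identity, had at most 2 counts, and Reln at most 4. Lyve1, a hyaluronan receptor of lymphatic and some other EC, fell from 284 ± 157 to 79.4 ± 4.18 CPM (SD, n = 3 each), with a log2 fold change of -1.84 and an adjusted p of 0.0301 from edgeR. It missed the threshold when any Meis1-OE library was left out (adjusted p = 0.121 to 0.149 from edgeR) and with the proliferation covariate (log2 fold change -1.54, adjusted p = 0.119). Lyve1 made up nearly all of the summed lymphatic markers, which were 76.2 to 84.1 CPM in Meis1-OE and 161 to 461 CPM in YFP-CTRL libraries.

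Vegfb, a ligand of VEGFR1 alone, was at 40.6, 46.5 and 50.9 CPM for Meis1-OE, against 32.3, 32.97 and 40.1 CPM for YFP-CTRL. The conditions did not overlap, but Meis1-OE library A and YFP-CTRL library C lay close together. The log2 fold change was 0.39 (SE 0.14, adjusted p = 0.139 from edgeR). It was 0.48 and passed once YFP-CTRL library C was left out (adjusted p = 0.0186 from edgeR), in a fit that called 16.5% of tested genes higher.

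Pgf, the placental growth factor, was at 97.1, 100.3 and 112 CPM for Meis1-OE, against 141, 196 and 137 CPM for YFP-CTRL. All Meis1-OE libraries were below the YFP-CTRL libraries, of which B was the highest. The log2 fold change was -0.62 (SE 0.16, adjusted p = 0.0661 from edgeR). DESeq2 gave -0.63 and called Pgf (adjusted p = 0.0263, 6.14% of genes called lower). So did edgeR without YFP-CTRL library C (log2 fold change -0.72, adjusted p = 0.0157, 15.2% of genes called lower). Pgf did not pass when any Meis1-OE library was left out (adjusted p = 0.194 to 0.268 from edgeR). Nor did it pass without YFP-CTRL library A (0.0674), without library B (0.127) or with the proliferation covariate (0.167).

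Vegfa, the main angiogenic ligand, was at 41.0, 47.3 and 42.7 CPM for Meis1-OE, against 146, 136 and 24.3 CPM for YFP-CTRL. The Meis1-OE libraries lay close together, whereas YFP-CTRL libraries A and B were above them and library C was below them. The log2 fold change of -1.23 had an SE of 0.57 and did not pass (adjusted p = 0.220 from edgeR). YFP-CTRL library C, lowest in Vegfa, had the highest proliferation score of the controls, and library A, highest in Vegfa, had the lowest. Leaving out library C gave -1.70 (adjusted p of 0.000318 by edgeR, where 15.2% of tested genes were called lower). Adding the proliferation scores as a covariate turned the direction of Vegfa, to 0.40 (SE 0.46, adjusted p = 0.699 from edgeR).

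Among the receptors, Kdr, which encodes the main signalling receptor of EC, was at 261, 329 and 367 CPM for Meis1-OE, against 754, 1042 and 457 CPM for YFP-CTRL. Each Meis1-OE library was below each YFP-CTRL library, and the gap was narrowest to library C of the controls. Its log2 fold change was -1.23 (SE 0.29, adjusted p = 0.0504 from edgeR), just outside the threshold. Kdr passed in DESeq2 (-1.25, adjusted p = 0.00134, 6.14% of genes called lower). It also passed in edgeR with no filter on low counts (-1.23, adjusted p = 0.0332, 1.39% of genes called lower). The same held without YFP-CTRL library C (-1.51, adjusted p = 0.00249, 15.2% of genes called lower). Kdr did not pass when any Meis1-OE library was left out (adjusted p = 0.160 to 0.201 from edgeR). Nor did it pass without YFP-CTRL library A (0.0887) or library B (0.137). With the proliferation covariate the log2 fold change of Kdr was -0.82 (adjusted p = 0.234 from edgeR).

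Flt1, whose gene counts do not separate the membrane receptor from its soluble form, was at 96.7, 113 and 119 CPM for Meis1-OE, against 111, 149 and 162 CPM for YFP-CTRL. YFP-CTRL library A lay within the range of the Meis1-OE libraries, and the other controls lay above it. The log2 fold change was -0.36 (SE 0.16, adjusted p = 0.214 from edgeR). It was -0.52 and passed once YFP-CTRL library A was left out (adjusted p = 0.0467 from edgeR), in a fit that called 2.63% of tested genes lower.

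Flt4, the receptor gene for VEGF-C, was at 106, 100.2 and 103 CPM for Meis1-OE, against 50.3, 97.1 and 151 CPM for YFP-CTRL. The Meis1-OE libraries differed by little, and the controls lay on both sides of them. The condition means were 103 ± 2.76 and 99.5 ± 50.5 CPM (SD, n = 3 each), with a log2 fold change of 0.05 (SE 0.34, adjusted p = 0.948 from edgeR). YFP-CTRL library A had the lowest Flt4 and the lowest proliferation score, and library C the highest of both among the controls, the opposite order to Vegfa. With the proliferation covariate the log2 fold change of Flt4 was -0.63 and passed (SE 0.12, adjusted p = 0.0310 from edgeR, where 2.15% of tested genes were called lower). Leaving out YFP-CTRL library A gave -0.28 (adjusted p = 0.382 from edgeR).

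**Figure D2:**
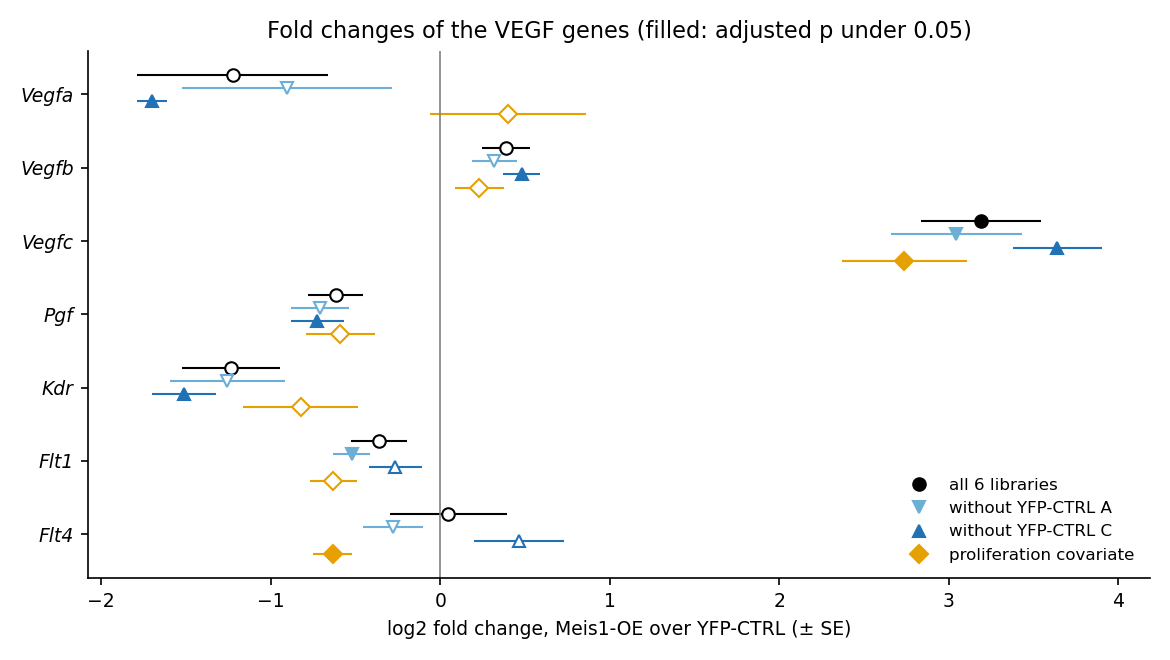
Log2 fold change (Meis1-OE over YFP-CTRL, bars for the SE) of each VEGF gene with all 6 libraries, without YFP-CTRL library A, without YFP-CTRL library C and with the proliferation covariate, with filled symbols for an adjusted p under 0.05 in edgeR. Vegfc stayed between 2.74 and 3.64 in these fits, while Vegfa ran from -1.70 to 0.40 and Flt4 from -0.63 to 0.46.

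The levels of the genes relative to each other were compared as CPM per kb of exon, the only scale used here across genes. In YFP-CTRL EC the order of the ligands was Pgf with 89.3, 124 and 86.7 per library, Vegfa at 23.8 ± 15.7, Vegfb at 21.9 ± 2.68 and Vegfc at 0.659 ± 0.307 CPM per kb (SD, n = 3), and Vegfa and Vegfb did not differ beyond their spread. In Meis1-OE EC the order was Pgf at 65.2 ± 5.06, Vegfb at 28.7 ± 3.22, Vegfa at 10.2 ± 0.763 and Vegfc at 6.07 ± 1.38 CPM per kb (SD, n = 3), and no neighbours overlapped between libraries. Pgf thus held the first place in both conditions.

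As a share of the summed ligand CPM per kb, Vegfc made up 4.63%, 6.70% and 5.15% for Meis1-OE, against 0.367%, 0.249% and 0.853% for YFP-CTRL. The share of Vegfb was 25.1% to 26.7% in Meis1-OE and 11.6% to 21.1% in YFP-CTRL libraries, and neither share overlapped between conditions. The share of Pgf was 57.2% to 60.8% in Meis1-OE and 62.0% to 73.3% in YFP-CTRL libraries, also without overlap. That of Vegfa was 8.38% to 9.94% in Meis1-OE libraries, within the 4.77% to 23.6% of YFP-CTRL libraries. Shares within a sum move against each other, so these are 1 description of the ligands and not separate results.

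Kdr led the receptors in both conditions, at 43.9 ± 7.39 CPM per kb in Meis1-OE and 103 ± 40.2 CPM per kb in YFP-CTRL EC (SD, n = 3). Flt4 followed at 12.5 ± 0.335 and Flt1 at 9.45 ± 0.993 CPM per kb in Meis1-OE EC, where the libraries of these genes did not overlap. In YFP-CTRL EC, Flt1 at 12.2 ± 2.30 and Flt4 at 12.1 ± 6.13 CPM per kb did not differ beyond their spread. The share of Kdr in the summed receptors was 86.8% and 85.3% in YFP-CTRL libraries A and B but 66.0% in library C, which lay among the Meis1-OE libraries at 62.9%, 67.4% and 68.9%. YFP-CTRL library C was therefore close to the Meis1-OE libraries in its receptor makeup, and unlike them in its ligands, where Vegfc stayed under 1% of the sum.

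**Figure D3:**
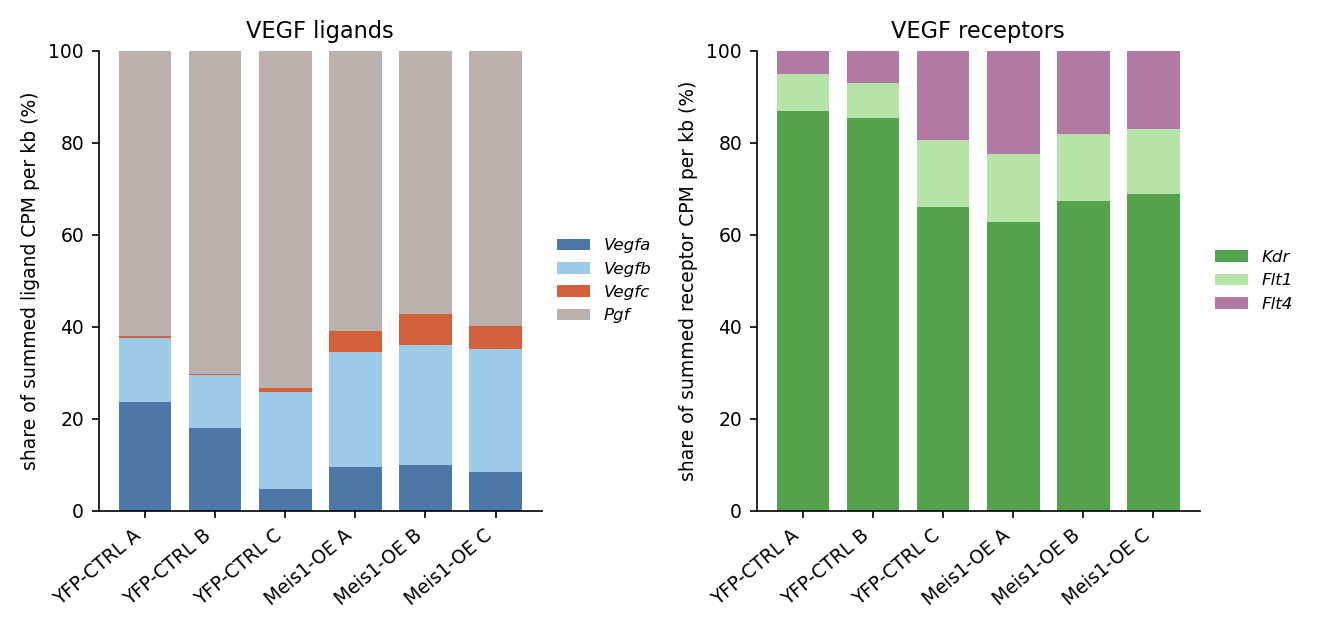
Share (%) of each gene in the summed CPM per kb of the 4 VEGF ligands (left) and of the 3 receptors (right), with 1 bar per library. Vegfc made up 4.63% to 6.70% of the ligand sum in Meis1-OE and 0.249% to 0.853% in YFP-CTRL libraries, and Kdr made up 66.0% of the receptor sum in YFP-CTRL library C beside 86.8% and 85.3% in libraries A and B.

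The next question was whether ligand and receptor moved apart within a library. For 6 ligand and receptor pairs known to bind, the log2 ratio of their counts was taken in each library, which does not depend on library depth, and the conditions were compared with a two-sided exact permutation test. With 3 libraries against 3, the smallest p that test can give is 0.1, so no pair could pass 0.05. For 3 of the 6 pairs the ratio was higher in each Meis1-OE library than in each YFP-CTRL library. Vegfc is the ligand in all of these but Vegfb to Flt1, and its own log2 fold change was 3.19, beside 0.05 for Flt4 and -1.23 for Kdr. The Vegfc ratios are therefore not results separate from that of Vegfc.

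For VEGF-C and its main receptor there were 83.9, 141 and 113 Vegfc counts per 1000 Flt4 counts for Meis1-OE, against 19.9, 8.58 and 12.7 for YFP-CTRL. The log2 ratio differed by 3.07 (SE 0.41, exact permutation p = 0.1, adjusted p = 0.2 over 6 pairs), or 8.41-fold. Against Kdr there were 33.9, 42.8 and 31.6 Vegfc counts per 1000 in Meis1-OE and 1.33, 0.800 and 4.19 in YFP-CTRL libraries, a difference in log2 ratio of 4.43 (SE 0.72, exact permutation p = 0.1, adjusted p = 0.2), or 21.5-fold. This difference was 5.10 without YFP-CTRL library C and 3.91 without YFP-CTRL library B. Both ratios were apart in all libraries, with YFP-CTRL library C nearest to Meis1-OE for Kdr and library A nearest for Flt4.

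For VEGF-B there were 420, 412 and 428 Vegfb counts per 1000 Flt1 counts in Meis1-OE and 291, 221 and 247 in YFP-CTRL libraries. The conditions did not overlap, and the log2 ratio differed by 0.74 (SE 0.12, exact permutation p = 0.1, adjusted p = 0.2), or 1.67-fold. Neither Vegfb nor Flt1 passed the test as a gene, and their differences lay in opposite directions.

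The pairs of Vegfa and Pgf overlapped between conditions. There were 424, 419 and 359 Vegfa counts per 1000 Flt1 counts for Meis1-OE, against 1315, 912 and 150 for YFP-CTRL, so the controls lay on both sides. The log2 ratio of Vegfa to Flt1 differed by -0.50 (SE 0.97, exact permutation p = 0.7), that of Vegfa to Kdr by 0.32 (SE 0.57, exact permutation p = 0.8) and that of Pgf to Flt1 by -0.25 (SE 0.21, exact permutation p = 0.4). Without YFP-CTRL library A the difference for Vegfa to Flt1 was 0.11, and without YFP-CTRL library C that for Vegfa to Kdr was -0.21, so the direction of both rested on 1 control library.

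**Figure D4:**
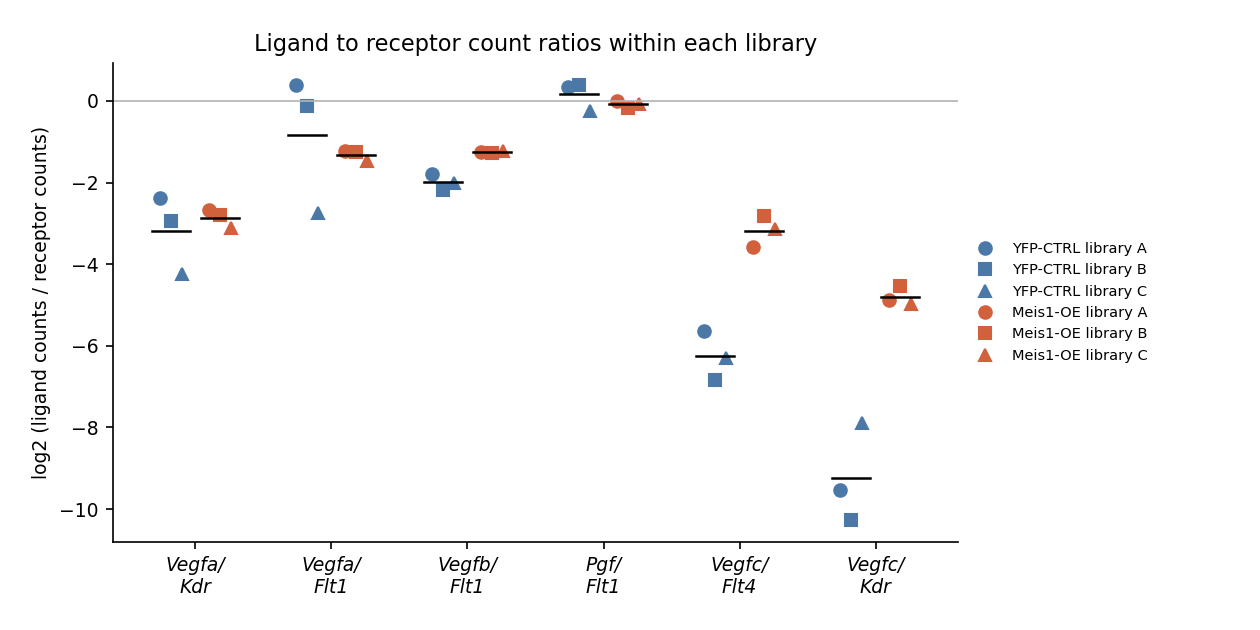
Log2 ratio of ligand to receptor counts in each library for 6 binding pairs, with bars at the mean of 3 libraries per condition. The ratios of Vegfc to Flt4, Vegfc to Kdr and Vegfb to Flt1 were higher in each Meis1-OE library, by 3.07, 4.43 and 0.74 between the means, and the other pairs overlapped.

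The wider VEGF pathway was described with 5 lists of 79 genes in all, of which 70 could be tested. In edgeR, 3 of these were called higher and 3 lower, beside 4.14% and 2.73% of all tested genes, so the shares were close to those of the whole table. Over all tested genes the median log2 difference was 0.01. When single libraries were left out, both the counts and the shares over all tested genes, given in parentheses, moved. The counts were 15 higher and 8 lower without YFP-CTRL library C (16.5% and 15.2% of tested genes), 3 higher and 6 lower without YFP-CTRL library A (3.73% and 2.63% of tested genes), 0 and 1 without YFP-CTRL library B (1.24% and 0.401%), 2 and 0 without Meis1-OE library A (2.02% and 0.417%), 0 and 0 without Meis1-OE library B (0.701% and 0.0975%), and 0 and 0 without Meis1-OE library C (0.766% and 0.109%).

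Coreceptors and partners bound to the receptors had 0 of 12 genes called (unadjusted, 3 higher and 1 lower; DESeq2, 2 higher and 0 lower) and a median log2 fold change of 0.10. Nrp1, a coreceptor for VEGF-A and an arterial gene, was at 20.7, 25.9 and 30.4 CPM in Meis1-OE and 37.6, 33.3 and 34.6 CPM in YFP-CTRL libraries, lower in each Meis1-OE library (log2 fold change -0.45, SE 0.16, adjusted p = 0.131 from edgeR). Nrp2, the coreceptor that VEGF-C uses in venous and lymphatic EC, was at 448, 575 and 603 CPM in Meis1-OE and 323, 474 and 457 CPM in YFP-CTRL libraries, which overlapped (log2 fold change 0.37, SE 0.18, adjusted p = 0.246 from edgeR). Neither coreceptor passed.

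Of the genes that mature VEGF-C and VEGF-D, 6 of 9 could be tested, with 1 called higher and 0 lower in edgeR (unadjusted, 2 higher and 0 lower; DESeq2, 1 higher and 0 lower) and a median log2 fold change of 0.62. Pcsk5, a proprotein convertase that can cleave VEGF-C, had 17, 72 and 68 counts in Meis1-OE and 0, 2 and 4 counts in YFP-CTRL libraries. It rose (log2 fold change 4.46, SE 0.84, adjusted p = 0.0265 from edgeR), though at under 2 CPM in each library, and the fitted fold rests on controls that are almost without counts. It no longer passed without Meis1-OE library B (adjusted p = 0.120), Meis1-OE library C (0.111) or YFP-CTRL library B (0.121), nor with the proliferation covariate (log2 fold change 3.46, adjusted p = 0.135), all from edgeR.

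Ccbe1, the secreted cofactor of VEGF-C processing, had 327, 248 and 166 counts in Meis1-OE and 18, 84 and 152 counts in YFP-CTRL libraries. The conditions did not overlap, but Meis1-OE library C and YFP-CTRL library C were nearly equal (3.58 and 3.35 CPM), and the log2 fold change of 1.43 did not pass (SE 0.57, adjusted p = 0.168 from edgeR). Adamts3, the protease that Ccbe1 activates, had 0 counts in all 6 libraries. Furin, another convertase, was at 317 to 426 CPM in Meis1-OE and 215 to 360 CPM in YFP-CTRL libraries (log2 fold change 0.31, SE 0.21, adjusted p = 0.378 from edgeR). Vegfd, the ligand closest to Vegfc, stayed at low counts of 27, 38 and 28 in Meis1-OE and 9, 5 and 30 in YFP-CTRL libraries (log2 fold change 0.93, SE 0.55, adjusted p = 0.328 from edgeR). Both passed in edgeR once YFP-CTRL library C was left out, Ccbe1 at 2.02 (adjusted p = 0.0410) and Vegfd at 1.81 (adjusted p = 0.0278).

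In the hypoxia genes that control Vegfa, 1 of 8 was called higher and 0 lower in edgeR (unadjusted, 2 higher and 0 lower; DESeq2, 2 higher and 0 lower), with a median log2 fold change of 0.08. The called gene, Epas1, encodes the hypoxia factor HIF-2 alpha of EC and rose from 236 ± 50.7 to 426 ± 56.2 CPM (SD, n = 3 each; log2 fold change 0.85, SE 0.18, adjusted p = 0.0389 from edgeR). Its libraries were at 363, 446 and 470 CPM in Meis1-OE and 189, 231 and 290 CPM in YFP-CTRL EC, without overlap. Vegfa, a known target of hypoxia factors, did not pass in the same libraries. Epas1 no longer passed when any Meis1-OE library or YFP-CTRL library B was left out (adjusted p = 0.0776 to 0.178 from edgeR), nor with the proliferation covariate (log2 fold change 0.55, adjusted p = 0.0959).

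Of the intracellular signalling genes, 24 of 28 could be tested, with 1 called higher and 0 lower in edgeR (unadjusted, 3 higher and 3 lower; DESeq2, 1 higher and 0 lower) and a median log2 fold change of -0.09. Pik3r1, a regulatory subunit of phosphoinositide 3-kinase, was at 72.4, 93.7 and 93.5 CPM in Meis1-OE and 51.0, 61.5 and 57.8 CPM in YFP-CTRL libraries (log2 fold change 0.61, SE 0.14, adjusted p = 0.0496 from edgeR). The conditions did not overlap, but the call lay at the edge of the threshold and was lost when any library except YFP-CTRL library C was left out (adjusted p = 0.0607 to 0.239 from edgeR), with DESeq2 size factors in edgeR (0.0563), with no filter on low counts (0.0672) or with the proliferation covariate (log2 fold change 0.52, adjusted p = 0.154).

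The list of genes that respond to VEGF or mark tip cells, the leading cells of a sprout, had 0 of 20 tested genes called higher and 3 lower in edgeR (unadjusted, 5 higher and 4 lower; DESeq2, 3 higher and 4 lower), with a median log2 fold change of -0.17. Cd34, a sialomucin of EC and tip cells, fell most evenly, with 385, 386 and 384 CPM in Meis1-OE and 619, 637 and 591 CPM in YFP-CTRL libraries (log2 fold change -0.68, SE 0.09, adjusted p = 0.0108 from edgeR). Plaur, the urokinase receptor, was at 160, 146 and 149 CPM in Meis1-OE and 330, 430 and 238 CPM in YFP-CTRL libraries (log2 fold change -1.13, SE 0.21, adjusted p = 0.0242 from edgeR). Adamts1, a secreted protease that can bind VEGF-A, was at 323, 320 and 390 CPM in Meis1-OE and 615, 893 and 490 CPM in YFP-CTRL libraries (log2 fold change -0.95, SE 0.22, adjusted p = 0.0489 from edgeR). All 3 fell without overlap, and YFP-CTRL library C was the lowest control for each. Leaving out any Meis1-OE library ended these calls, with adjusted p-values of 0.0545 to 0.0933 for Cd34, 0.0902 to 0.136 for Plaur and 0.1496 to 0.221 for Adamts1 from edgeR. Without YFP-CTRL library B, Plaur (0.0686) and Adamts1 (0.0994) did not pass, and without YFP-CTRL library A, Adamts1 (0.0714) did not. With the proliferation covariate the log2 fold change was -0.87 for Plaur (0.0910) and -0.77 for Adamts1 (0.182), neither of which passed, and Adamts1 also missed the threshold with DESeq2 size factors in edgeR (0.0517), with library totals in place of TMM (0.0575) and with at least 10 counts in every library (0.0528).

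**Figure D5:**
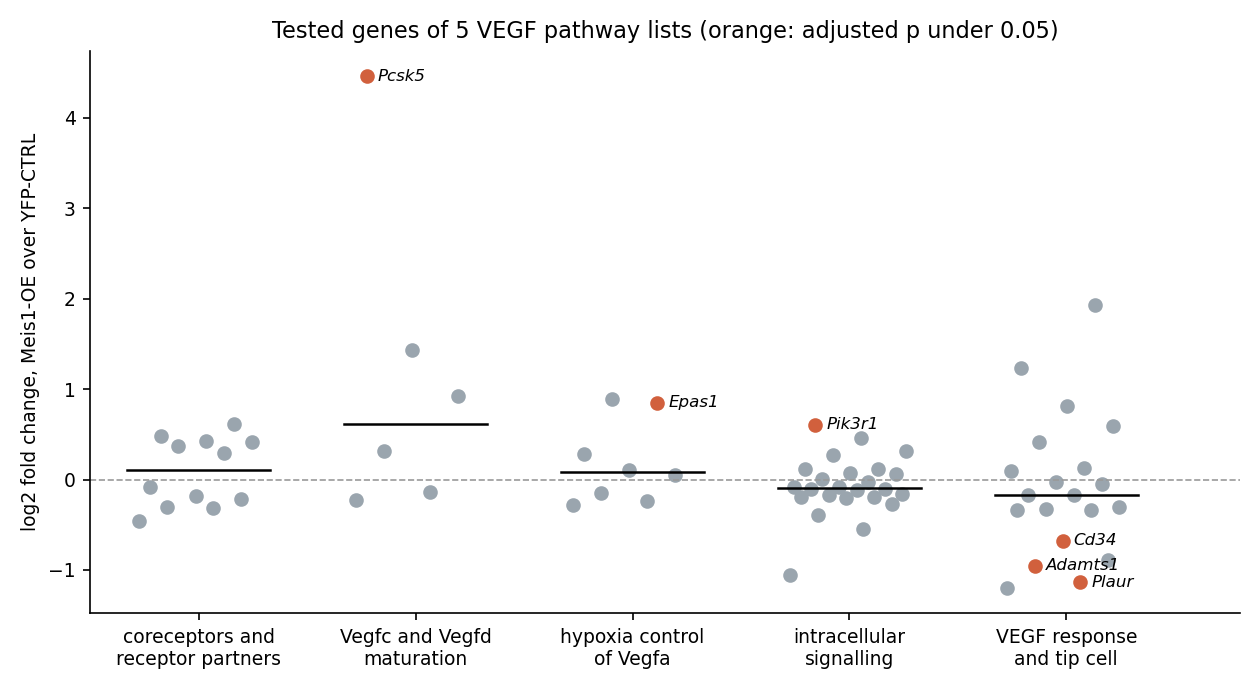
Log2 fold change (Meis1-OE over YFP-CTRL) of the 70 tested genes of 5 VEGF pathway lists, with a bar at the median of each list and the 6 genes called by edgeR in orange. List medians lay between -0.17 and 0.62, and the called genes were Pcsk5, Epas1 and Pik3r1 (higher) and Cd34, Adamts1 and Plaur (lower).

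The genes whose levels followed Vegfc most closely were named by Pearson's r of log2(CPM + 1) over the 6 libraries, among 10221 genes with a mean of at least 5 CPM. They were Myo7a (r = 0.999), which encodes an unconventional myosin, Pdk1 (r = 0.997), a kinase that holds back pyruvate dehydrogenase, and Senp7 (r = 0.997), a SUMO protease. Myo7a was at 11.6, 17.3 and 16.5 CPM in Meis1-OE and 1.15, 1.005 and 2.38 CPM in YFP-CTRL libraries, close to Vegfc in the size of its difference too (log2 fold change 3.31, adjusted p = 0.00520 from edgeR). Pdk1 passed with a log2 fold change of 1.33 (adjusted p = 0.0110 from edgeR), and Senp7 did not pass (0.38, adjusted p = 0.0892 from edgeR). With 2 conditions in 6 libraries, such an r is mostly the difference between conditions, and it is given as a description with no test.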

How the data were processed

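Mouse aortic EC of the Meis1-OE and YFP-CTRL conditions were measured by ribodepleted RNA-seq in 3 libraries per condition. The authors deposited 1 table of estimated counts per gene, some not whole, with no normalization. Per the labels' processing notes the build was mm10. The aligner, counter and annotation are not given in the sources used here. Columns were assigned to conditions by name. They carry letters, whereas the labels number the replicates.

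Counts were rounded to whole numbers and tested in edgeR 4.0.16 (R 4.3.3): TMM scaling, filterByExpr, quasi-likelihood fit, two-sided test, Benjamini-Hochberg adjustment over 16065 genes of 27948 with a count. The SE is the absolute log2 fold change divided by the square root of F. CPM are TMM-normalized, and the common biological coefficient of variation was 0.233. DESeq2 1.42.0, other scalings and filters, a proliferation covariate, a block and leaving out each library were alternatives. The script was tested on counts simulated with a common dispersion and 200 changed genes. There edgeR made 149 calls, 5 of them false, and DESeq2 159 calls, 17 of them false. Of 2-fold changes edgeR recovered 46.2% and DESeq2 47.3%, and of 4-fold changes 93.6% and 90.8%. Ratios used a pseudocount of 0.5. CPM per kb used the union of exons in GENCODE vM1 as lengths only, and loci and promoter sequences came from RefSeq GRCm38.p6.

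The text names all 7 VEGF genes, Meis1, the pathway genes past an adjusted p of 0.05 (up to 4 per direction and list), Nrp1, Nrp2, Vegfd, Ccbe1, Adamts3, Furin and the 3 genes most like a called VEGF gene. Marker genes, Gm26917 and YFP-CTRL libraries that stood apart are also given. The VEGF genes and the lists were chosen with earlier results of these data known. Intervals of counting error were not computed, since libraries differ by more than sampling noise.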

Additional observations from a re-analysis of the deposited data

How the results depend on the processing

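The call of Vegfc kept its direction and its side of the threshold under all alternatives run, with a log2 fold change of 2.97 to 3.64 when single libraries were left out. The number of VEGF genes called higher was 2 without YFP-CTRL library C (16.5% of all tested genes) and otherwise 1. The number called lower was 2 with DESeq2 (6.14% of all tested genes), 1 with no filter on low counts (1.39%) and 1 with the proliferation covariate (2.15%). When single libraries were left out it ran from 0 to 3, with 3 without YFP-CTRL library C (15.2%) and 1 without YFP-CTRL library A (2.63%). The shares over all tested genes thus moved as well. In the pathway lists, the number called higher was 11 with library totals in place of TMM (6.52% of all tested genes), 9 with DESeq2 (6.21%) and 1 with the covariate (2.54%), beside 3 (4.14%) in the reported fit, and ran from 0 to 15 when single libraries were left out, while the number called lower ran from 0 to 8. The cause of these changes was not tested.

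Kdr passed with no filter (-1.23) and with DESeq2 (-1.25), and Pgf passed with DESeq2 (-0.63). Leaving out single libraries moved the log2 fold change of Kdr between -1.51 and -0.92, Pgf between -0.72 and -0.42, Vegfa between -1.70 and -0.91, Vegfb between 0.31 and 0.48, Flt1 between -0.52 and -0.27 and Flt4 between -0.28 and 0.46. With the covariate the signs of Vegfa (0.40) and Flt4 (-0.63) reversed. The ratio of Vegfa to Flt1 ran from -1.45 to 0.11 and that of Vegfa to Kdr from -0.21 to 0.73 when single libraries were left out, and the direction of the other 4 ratios was kept, also with a pseudocount of 5. Over the same fits the ratio of Vegfc to Kdr ran from 3.91 to 5.10, Vegfc to Flt4 from 2.78 to 3.39, Vegfb to Flt1 from 0.65 to 0.85 and Pgf to Flt1 from -0.45 to -0.14.

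A block by replicate number could not be fitted, because the labels number the replicates and the columns carry letters that nothing maps to those numbers. A fit with the column letter as a replicate block was added after seeing the data. Deviations from the condition means correlated by 0.24, 0.19 and 0.08 between libraries of the letters A, B and C, and not each library correlated best with its own letter. That block called 1 VEGF gene higher and 0 lower, with Vegfc at 3.24 (adjusted p = 0.0122 from edgeR), and 544 genes higher and 189 lower of all tested, beside 665 and 438 without it. Of the named pathway genes, Pik3r1 and Adamts1 lost their calls under it.

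In the edgeR fit of all 6 libraries without a covariate, Vegfa (log2 fold change -1.23, adjusted p = 0.220) and Flt4 (0.05, adjusted p = 0.948) did not pass. Both varied widely among the YFP-CTRL libraries, and the part of this spread in the results was not tested. A library left out in turn leaves 2 in its condition.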
